A study of Papio papio with 23 samples.

Results

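The comparison described here sets blood from baboons on the second day after irradiation, of animals that developed medium to severe haematological acute radiation syndrome (HARS, the fall in blood cells that follows irradiation of the bone marrow), against blood from unexposed baboons. Its members were chosen by the sample titles: 5 arrays of the H2-3 category on day 2 and 5 arrays of the H0 category, 10 of the 23 arrays of the study. The animals were adult male Papio papio with a mean age of 8.1 ± 3.3 years. The H2-3 baboons had received gamma rays of a cobalt source, to the total or to a part of the body, at an equivalent whole-body dose of 2.5 or 5 Gy. The dose and the field of a single animal are not given, and the category names the syndrome that developed later, not a state at sampling. The H0 baboons were healthy and sampled before irradiation, and the sources used here do not say whether the irradiated animals are the same baboons. Both groups are adult males kept under 1 set of housing conditions, and each array held RNA from the whole blood of 1 animal. The same 5 H2-3 baboons were also sampled on day 1, and 4 baboons of the milder H1-2 category on days 1 and 2.

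Blood of 2.5 ml was drawn into tubes that fix RNA, and 100 ng of total RNA was labelled with Cy3 and hybridised to human Agilent arrays. A level below is the log2 signal of a gene's probe minus the 75th percentile of its array, so a level of 0 lies at that percentile. Single values are in the order of the baboons' numbers, 1 to 5, within each group, and whether a number marks the same animal in H0 and in H2-3 is not known. Levels of different probes are not comparable, because probes differ in brightness and because human probes can bind baboon RNA unequally.

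Ionising radiation breaks DNA and activates the transcription factor p53, which induces genes of cell cycle arrest, repair and cell death. Lymphocytes, B cells above all, are among the most radiosensitive cells of the body, whereas circulating neutrophils, monocytes and platelets do not divide and tolerate the same doses. Whole blood RNA is therefore a mixture in which both the transcript levels within cells and the numbers of cells can move. Fewer cells of a type and less RNA per cell cannot be told apart in these data.

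The 60-base probes behind 6 of the genes with the largest differences are shown by their first 30 bases, because the human sequence decides what baboon RNA can bind. The positions are on the human build hg19 as the files give them, and the annotation of exons and untranslated regions was not used here. WNT3 on the minus strand at chr17:44841734-44841763, MARCO on the plus strand at chr2:119751977-119752006, VPREB1 on the plus strand at chr22:22599858-22599887, IGF2 on the minus strand at chr11:2150424-2150453, CES1 on the minus strand at chr16:55836794-55836823 and CES1P2 on the plus strand at chr16:55776729-55776758 read, 5′ to 3′:
WNT3: gaagggggctttctttttagttctctaggg
MARCO: tggctggataatgttcagtgtcggggcacg
VPREB1: tgcagtgttgctgtaaatccccattggaga
IGF2: ctcaactcagctcctttaacgctaatattt
CES1: aggagcaagttttgtatttgtgacctcagc
CES1P2: agtacttaggaggaacagatgaccctgtca
The longest run of bases shared by the full CES1 and CES1P2 probes was 5 bases. This compares the probes with each other only, and whether the CES1P2 probe binds CES1 RNA was not tested.

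Between 45.75 and 50.9% of the probes were well above background on the H2-3 day 2 arrays, against 45.05 to 51.48% on the H0 arrays, and 0 probes were saturated. The mean correlation of an array with the others of its group was lowest for H0 replicate 1, at 0.948. The H2-3 day 2 arrays lay on slides 5 and 6 and were scanned on 1 day. H0 arrays lay on slides 3, 4 and 7 and were scanned on 2 other days. No slide or scan day held arrays of both groups, so slide, scan day and group cannot be told apart. With scan day as a random block, 27 of 21203 genes passed in place of 3123.

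Of the 21203 genes tested, 3123 (14.7%) differed at an adjusted p under 0.05 with limma and Benjamini-Hochberg adjustment, 2175 (10.3%) higher and 948 (4.47%) lower in H2-3 day 2 blood. At least a 2-fold difference was reached by 1729 of them, 1253 higher and 476 lower, and a 4-fold difference by 183, 125 higher and 58 lower. The median log2 difference of all genes was -0.03. When the 75th percentile was taken over the probes well above background on all arrays, that median was -0.18 and 1557 genes were higher and 2034 lower, so the balance of directions depends on the scaling. Higher genes were mostly bright ones: when the genes were split by mean level into 3 parts of equal size, 18.3% of the brightest part were higher and 2.65% lower, against 4.54% higher and 5.39% lower in the dimmest part. Every H2-3 day 2 array was above every H0 array for 1196 genes (5.64%), and below every H0 array for 627 (2.96%). The plot of all genes by level shows the rise at the bright end and the largest differences at the dim end.

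Single arrays weighed heavily in these counts. H2-3 day 2 replicate 4 was the highest of its group for 1287 (59.2%) of the 2175 higher genes, and H0 replicate 1 was the lowest of its group for 1383 (63.6%) of them. Without H2-3 day 2 replicate 4, 831 genes passed. Without H2-3 day 2 replicate 5 the count was 1472, and without H0 replicate 1 it was 1079. With the 3 H2-3 day 2 arrays of slide 5 alone 10 genes passed, with the 2 arrays of slide 6 alone 6074, and with the 3 H0 arrays of scan day 1 alone 427. Of 169 genes named by the rule of the methods that passed with all arrays, 106 passed also with each of the 10 arrays left out in turn. A gene given below with the SE of its difference from H0 is 1 of those 106 unless the text names the arrays without which its call was lost. List members given without an SE, and genes named beyond the rule, were chosen for the text after their values were seen.

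**Figure D1:**
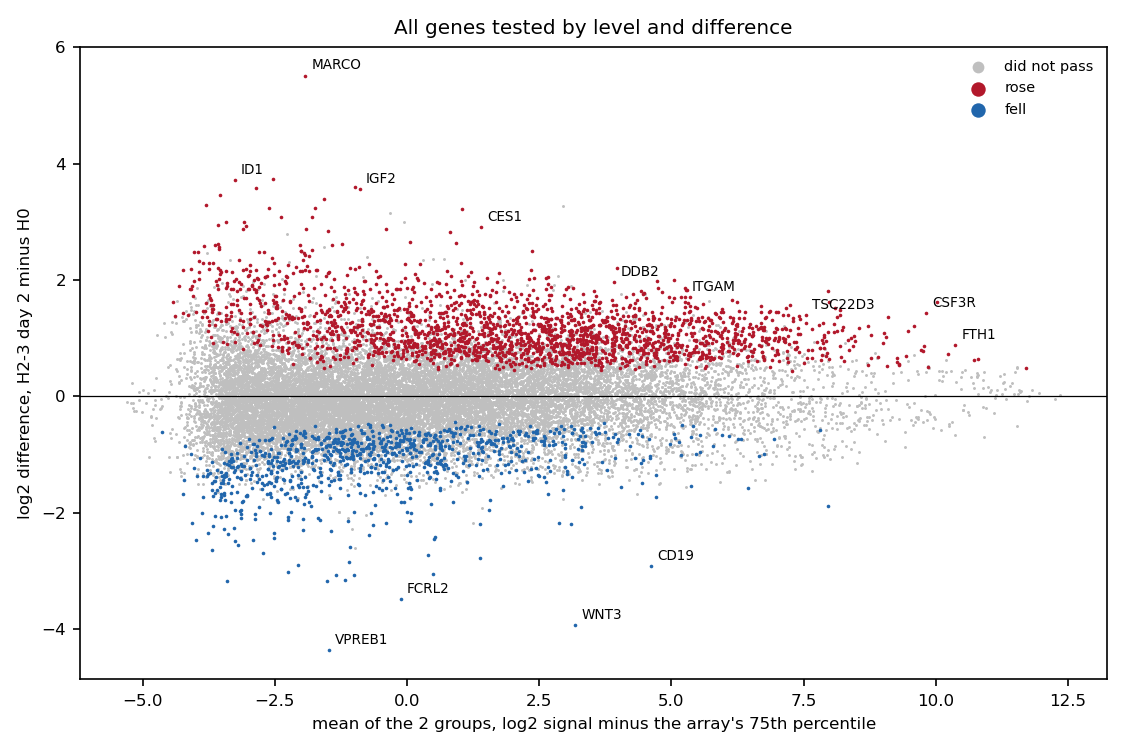
Each point is 1 of 21203 genes, with the mean level of both groups on the x axis and the log2 difference, H2-3 day 2 minus H0, on the y axis. The 2175 genes that rose are red, the 948 that fell are blue, and the rest are grey; MARCO stands highest and VPREB1 lowest.

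The largest rise was that of MARCO, a class A scavenger receptor of macrophages that binds bacteria and particles. Its levels were 1.22, -0.26, -0.59, 1.75 and 2.05 on the H2-3 day 2 arrays and -4.19, -5.55, -3.74, -4.75 and -5.16 on the H0 arrays. All 5 H2-3 day 2 values lay above all H0 values, none of which was well above background, so the change was at least 45.4-fold (log2 difference 5.51, SE 0.84, adjusted p = 0.0031). For a probe at background in a group, "at least" means that the mean of the brighter group was divided by a floor: on each array, the dimmest detected signal or the probe's own signal, whichever was greater.

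Other genes rose out of the background in the same way, in which no H0 array gave a signal well above background. ID1, an inhibitor of basic helix-loop-helix transcription factors and a target of BMP signalling, had levels of -1.76, -1.36, 0.05, -1.52 and -2.39 on day 2 and at most -4.03 on the H0 arrays, at least an 11.7-fold rise (adjusted p = 0.00123). EPS8, an actin-capping protein, was at least 8.49-fold higher, with day 2 levels between -1.07 and -0.26 and H0 levels between -5.19 and -3.11 (adjusted p = 0.000909). WTH3DI was at least 13.3-fold higher (adjusted p = 0.0107). For these 3 genes, too, the groups did not overlap. The organic anion transporter SLCO2B1 was well above background on 4 of 5 H2-3 day 2 arrays and at least 7.86-fold higher (adjusted p = 0.0182), a call that was lost without H2-3 day 2 replicate 4. In all, 93 of the 2175 higher genes were not well above background on any H0 array.

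Among genes with a gene symbol that were measured in both groups, the imprinted growth factor gene IGF2 rose most. Its levels were 0.62, 0.76, 2.74, 0.35 and -0.03 on day 2 and -3.37, -1.60, -2.93, -2.29 and -3.17 in H0 blood, where 3 of 5 arrays were well above background. The groups did not overlap, and H2-3 day 2 replicate 3 stood above the others (log2 difference 3.56, SE 0.56, adjusted p = 0.00344). A second IGF2 probe, well above background on 2 of the 23 arrays, differed by 0.29.

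CES1, a carboxylesterase of liver and monocytes that hydrolyses drugs and cholesteryl esters, had levels of 1.96, 1.93, 2.50, 4.35 and 3.53 on day 2 and -0.01, 0.18, 1.66, -1.45 and -0.68 in H0 blood. Baboons 4 and 5 of the H2-3 group carried the highest values, and the call (log2 difference 2.91, SE 0.78, adjusted p = 0.0203) was lost without either of them. The probe named for the pseudogene CES1P2 behaved alike, with a log2 difference of 3.08 (SE 0.79, adjusted p = 0.0167), and lost its call without H2-3 day 2 replicate 4. The 3 other kept probes of CES1 differed by 3.29, 0.54 and 0.60. VSIG4, a complement receptor of tissue macrophages, lay at 1.77, 2.01, 1.56, 3.12 and 2.69 on day 2, above every H0 value (-1.19, -0.96, -0.31, -0.15 and -0.39). Its log2 difference was 2.83 (SE 0.58, adjusted p = 0.0084). CD1A, which presents lipid antigens to T cells, differed by 2.87 (SE 0.51, adjusted p = 0.00584), and TM4SF19 by 2.85 (SE 0.67, adjusted p = 0.012); in both, no H2-3 day 2 array fell below an H0 array.

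FAM20A differed by 2.65 (SE 0.65, adjusted p = 0.0145), and 1 H0 baboon, replicate 3, reached 0.90, above the lowest day 2 value of 0.88. FER1L4, a long noncoding RNA, lay between -0.60 and 0.72 on day 2 and between -3.26 and -1.79 in H0 blood (log2 difference 2.62, SE 0.43, adjusted p = 0.00388). C11orf96 was detected on 4 of 5 H0 arrays and differed by 3.22 (SE 0.92, adjusted p = 0.0263). It lost its call without H2-3 day 2 replicate 4, H2-3 day 2 replicate 5 or H0 replicate 1. The probe used for XIST, the RNA that silences an X chromosome in female cells, differed by 2.63 (SE 0.64, adjusted p = 0.0138), although all animals were male, and lost its call without H2-3 day 2 replicate 4. The other kept XIST probe differed by -0.41, so the probes of this gene did not share a direction.

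**Figure D2:**
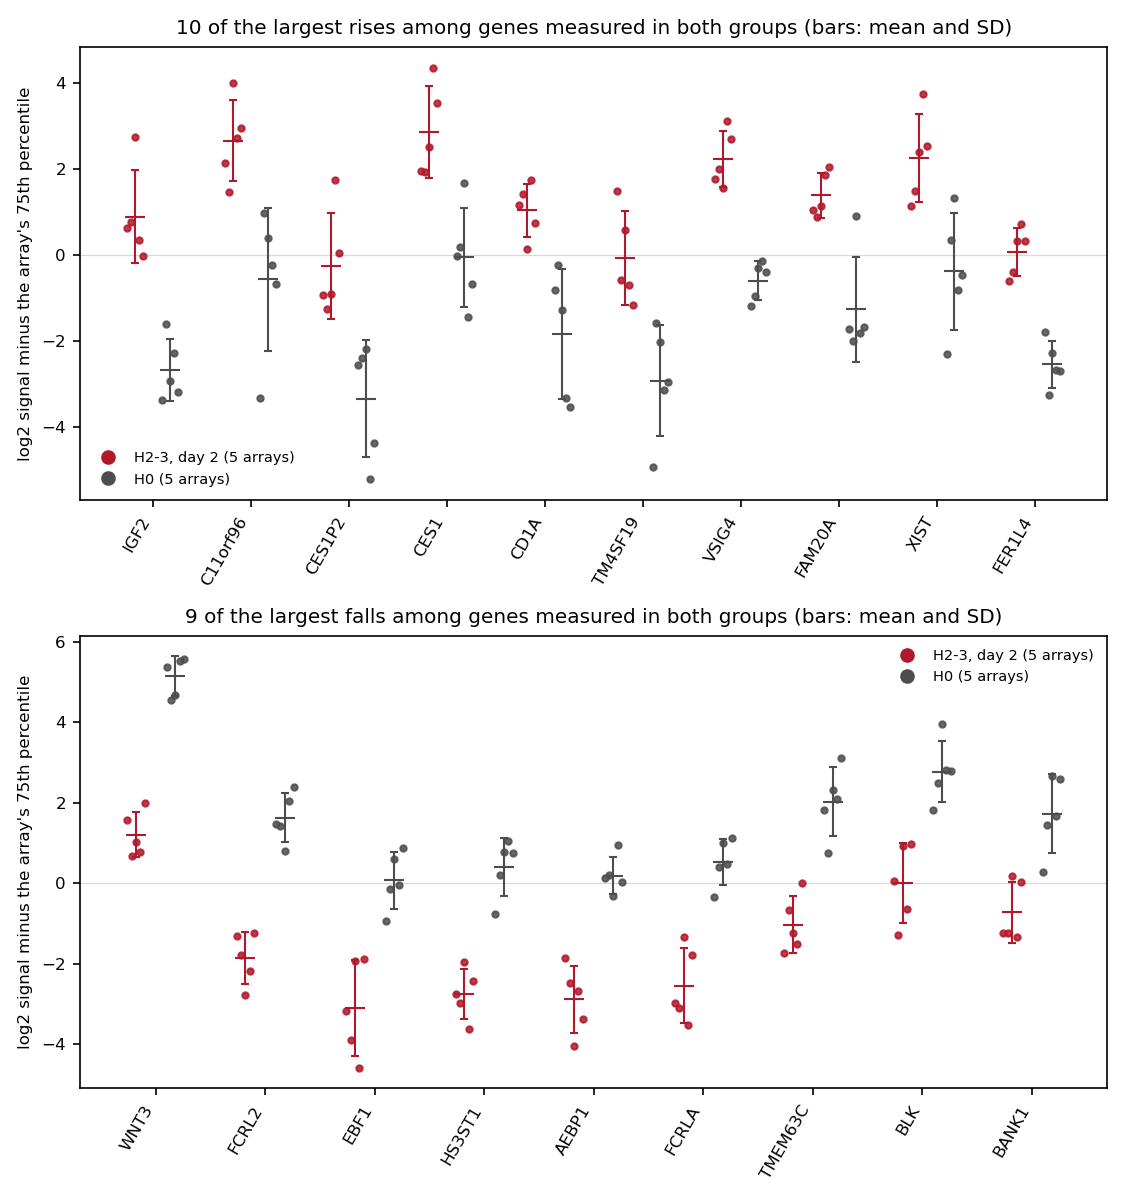
Each point is the level of a gene on 1 array (log2 signal minus the array's 75th percentile), red for the 5 H2-3 day 2 arrays and grey for the 5 H0 arrays, with mean and SD as bars. The upper panel holds 10 of the largest rises and the lower panel 9 of the largest falls among genes with a gene symbol that were measured in both groups. WNT3 lay between 0.68 and 1.98 on day 2 and between 4.55 and 5.58 in H0 blood.

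WNT3, a secreted ligand of the WNT pathway, fell most among the genes with a gene symbol that were measured in both groups. Its levels were 1.57, 0.68, 1.02, 0.77 and 1.98 on day 2, against 5.39, 4.55, 4.67, 5.53 and 5.58 in H0 blood. The means were 1.21 ± 0.55 and 5.14 ± 0.50 (SD, n = 5 each), a 15.3-fold difference with no overlap (log2 difference -3.94, SE 0.84, adjusted p = 0.00864). Of 26 tested genes of the WNT pathway 0 rose and WNT3 alone fell by limma, with a median of -0.10.

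VPREB1, part of the surrogate light chain of B cell precursors, was not well above background on any H2-3 day 2 array and lay at 0.38, 0.12, 0.74, 1.30 and 1.01 in H0 blood, at least a 20.6-fold fall (log2 difference -4.37, SE 0.91, adjusted p = 0.00864). A second VPREB1 probe differed by -4.20. FCRL2, an Fc receptor-like protein of B cells, lay between -2.78 and -1.25 on day 2 and between 0.79 and 2.38 in H0 blood (log2 difference -3.49, SE 0.68, adjusted p = 0.00795). A second kept FCRL2 probe differed by only -0.50. With the probes used for VPREB1 and FCRL2, every day 2 array lay below every H0 array.

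EBF1, the transcription factor that sets B cell identity, differed by -3.17 (SE 0.70, adjusted p = 0.00933), with 3 of 5 H2-3 day 2 arrays well above background. The B cell genes FCRLA and BLK differed by -3.08 (SE 0.65, adjusted p = 0.00864) and -2.77 (SE 0.65, adjusted p = 0.0119), again without overlap. BANK1 differed by -2.45 (SE 0.66, adjusted p = 0.0208) and lost its call without H2-3 day 2 replicate 4. POU2AF1, a coactivator of immunoglobulin genes, differed by -2.17 (SE 0.60, adjusted p = 0.0234), and this call too was lost without H2-3 day 2 replicate 4. A second probe of POU2AF1 differed by 0.01.

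HS3ST1, TMEM63C and AEBP1 were large falls outside the B cell list. HS3ST1, a heparan sulfate sulfotransferase, lay between -3.62 and -1.97 on day 2 and between -0.77 and 1.05 in H0 blood (log2 difference -3.15, SE 0.68, adjusted p = 0.00877). TMEM63C had levels of -1.74, -0.66, -1.25, -1.52 and 0.00 on day 2 and 1.81, 0.76, 2.31, 2.10 and 3.12 in H0 blood (log2 difference -3.05, SE 0.51, adjusted p = 0.00477). In both genes all day 2 arrays lay below all H0 arrays. AEBP1 differed by -3.08 (SE 0.88, adjusted p = 0.0267), a call lost without H2-3 day 2 replicate 4, H2-3 day 2 replicate 5, H0 replicate 1 or H0 replicate 4. Also, 4 further genes fell to background on every H2-3 day 2 array: ELL3, an elongation factor of RNA polymerase II, by at least 5.51-fold, the small GTPase RAB26 by at least 4.37-fold, the vitamin C transporter SLC23A1 by at least 4.31-fold and MAP6D1 by at least 4.11-fold. In that order, their probes were well above background on 10, 4, 9 and 6 of the 23 arrays. For RAB26 all 4 were H0 arrays. MAP6D1 was named only because at least 4 H0 arrays were well above background, so fewer than 4 of its 6 lay outside H0. RAB26 and MAP6D1 thus passed the filter of at least 4 arrays only through the group where they were high. Their falls are not independent of that filter.

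The genes that still passed with scan day as a random block were 22 higher and 5 lower ones, all of which had also passed without the block. No scan day held arrays of both groups, so passing this fit does not separate a scan day effect from the group. The higher ones were EPS8, ABCC3, XLOC_008439, PAPD5, ID1, SEMA3B, MCAM, ACRC, SLC7A7, NFYA, MARCO, RIN1, PYGM, IGF2, RAB11FIP4, LOH12CR2, FER1L4, GDF1, AEN, CFHR3, KCNE3 and GRN. The lower ones were SLC6A16, LINC00467, RAB26, XLOC_007698 and TMEM63C, of which RAB26 had passed the filter on dim probes only through H0 arrays. Their log2 differences in that fit ran from 1.46 for LOH12CR2 to 5.52 for MARCO among the higher genes, and from -1.31 for LINC00467 to -3.03 for TMEM63C among the lower ones. SLC7A7, a subunit of the transporter of cationic amino acids that monocytes express, had levels of 5.72, 6.01, 5.16, 6.04 and 5.60 on day 2 and 3.37, 3.97, 4.15, 3.56 and 3.60 in H0 blood. GRN, the precursor of the lysosomal protein progranulin, differed by 1.63 in that fit. The names outside the rule in this list, such as ABCC3 and GRN, were chosen after their values were seen.

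Blood cell markers moved with these differences. Each list count against H0 is to be read beside the shares of all genes, 10.3% higher and 4.47% lower. Of 18 tested B cell markers 14 fell and 0 rose (77.8% fell), with a median of -2.18. Of the 18, 16 lay below every H0 array, as did 2.96% of all genes. The fall of the list held for 7 members without H2-3 day 2 replicate 4 and for 12 to 15 without any other single array. The mean level of the list ran from -0.70 to 0.26 on the H2-3 day 2 arrays, against 1.78 to 2.32 in H0 blood. Of 21 markers of NK and other cytotoxic cells 7 fell (33.3%), among them the granzyme gene GZMK, which differed by -1.95 (SE 0.43, adjusted p = 0.00933). This count was 1 without H2-3 day 2 replicate 4, 2 without H0 replicate 1, 3 without H2-3 day 2 replicate 1 or H0 replicate 2, 4 or 5, 4 without H2-3 day 2 replicate 5 and 13 without H0 replicate 3. Of 22 T cell markers 3 fell (13.6%), CD3G, CD27 and CD28, none of which passed without H2-3 day 2 replicate 4 or H0 replicate 1. The count was 1 without H2-3 day 2 replicate 5. The mean level of the T cell list, 2.06 to 2.95 on day 2, overlapped with the 2.65 to 3.62 of H0 blood.

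Markers of myeloid cells and platelets went the other way. Of 18 neutrophil markers 11 rose (61.1%, median 1.37), of 13 monocyte markers 7 (53.8%, median 1.14) and of 18 platelet markers 10 (55.6%, median 1.57), against 10.3% of all genes. In that order, 4, 3 and 2 rose when H2-3 day 2 replicate 4 was left out, 5, 4 and 5 when H2-3 day 2 replicate 5 was left out, and 4, 3 and 3 when H0 replicate 1 was left out. The neutrophil count was also 7 without H2-3 day 2 replicate 2 and 6 without H0 replicate 5, and the platelet count 5 without H0 replicate 5. The mean levels on day 2 and in H0 blood were 4.72 to 4.93 against 3.55 to 4.27 for the monocyte list, 2.86 to 4.00 against 1.48 to 2.81 for the platelet list, both without overlap, and 2.78 to 4.07 against 0.92 to 3.29 for the neutrophil list. Of 14 erythroid markers 0 rose and 0 fell (median -0.53), and of 15 genes of the granules of immature neutrophils 2 rose and 1 fell. The part of these cell types in the gene differences described below was not tested.

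Some of the p53 target genes rose, and most did not pass. Of 24 genes of p53-driven arrest and feedback 6 rose and 0 fell (25% rose, against 10.3% of all genes), with a median of 0.63. Of 23 genes of p53-driven and intrinsic cell death 8 rose and 1 fell, with a median of 0.80. The count for arrest was 3 without H2-3 day 2 replicate 4 and 11 without H2-3 day 2 replicate 1, and the count for death was 5 without H2-3 day 2 replicate 4. Without any other single array they ran from 4 to 8 and from 6 to 10.

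DDB2, the p53-induced recognition factor of UV-type DNA damage, had levels of 4.12, 4.81, 5.52, 4.98 and 5.09 on day 2 and 3.24, 2.65, 2.81, 3.11 and 2.88 in H0 blood. The means were 4.91 ± 0.51 and 2.94 ± 0.24 (SD, n = 5 each), with no overlap (log2 difference 1.96, SE 0.33, adjusted p = 0.0049). AEN, an apoptosis-enhancing nuclease, lay at -1.07, -0.67, -0.22, -0.99 and -0.57 on day 2 and at -2.37, -3.10, -5.13, -2.49 and -2.59 in H0 blood, where 3 of 5 arrays were well above background (log2 difference 2.43, SE 0.39, adjusted p = 0.00364). TNFRSF10B, a death receptor for the ligand TRAIL, had levels of -0.41, 0.47, 1.31, 0.20 and 0.92 on day 2 and -2.20, -1.58, -1.48, -1.64 and -1.35 in H0 blood (log2 difference 2.15, SE 0.41, adjusted p = 0.00684). In both genes every day 2 array was above every H0 array.

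CDKN1A, the p21 inhibitor of cyclin-dependent kinases, was well above background on 1 of 5 H0 arrays. Its levels were -0.53, -2.19, -0.12, -0.68 and -0.40 on day 2 and -3.21, -3.22, -1.67, -3.17 and -3.43 in H0 blood, so that H2-3 day 2 replicate 2 lay below H0 replicate 3 (log2 difference 2.16, SE 0.52, adjusted p = 0.0135). PCNA, the sliding clamp of DNA polymerases, lay between 2.87 and 4.03 on day 2 and between 1.84 and 2.66 in H0 blood (log2 difference 1.23, SE 0.28, adjusted p = 0.00991). The ribosomal protein paralogue RPS27L, the BH3-only protein BID and the cyclin CCNG2 differed by 1.22, 1.20 and 1.03. The other risen members were BTG2, ZMAT3, PHLDA3, BBC3, MCL1, TNFRSF10A, BAK1 and CASP8, with log2 differences from 0.64 for CASP8 to 1.60 for BBC3, and the member that fell was BCL2L1, an inhibitor of apoptosis, with -1.54.

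Not every known p53 target passed. MDM2, the ubiquitin ligase that degrades p53, had a log2 difference of 0.64 (adjusted p = 0.0664) with the probe used, and its 3 other kept probes differed by 1.86, 1.29 and 2.02. BAX differed by 0.64 (adjusted p = 0.184), with a second kept probe at -0.22, and CCNG1 by 0.53 (adjusted p = 0.0838). FDXR, a mitochondrial reductase that p53 induces and that serves as a dose marker in human blood, lay between 2.29 and 2.96 on day 2 and between 2.70 and 3.57 in H0 blood, with a log2 difference of -0.53 (adjusted p = 0.127).

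**Figure D3:**
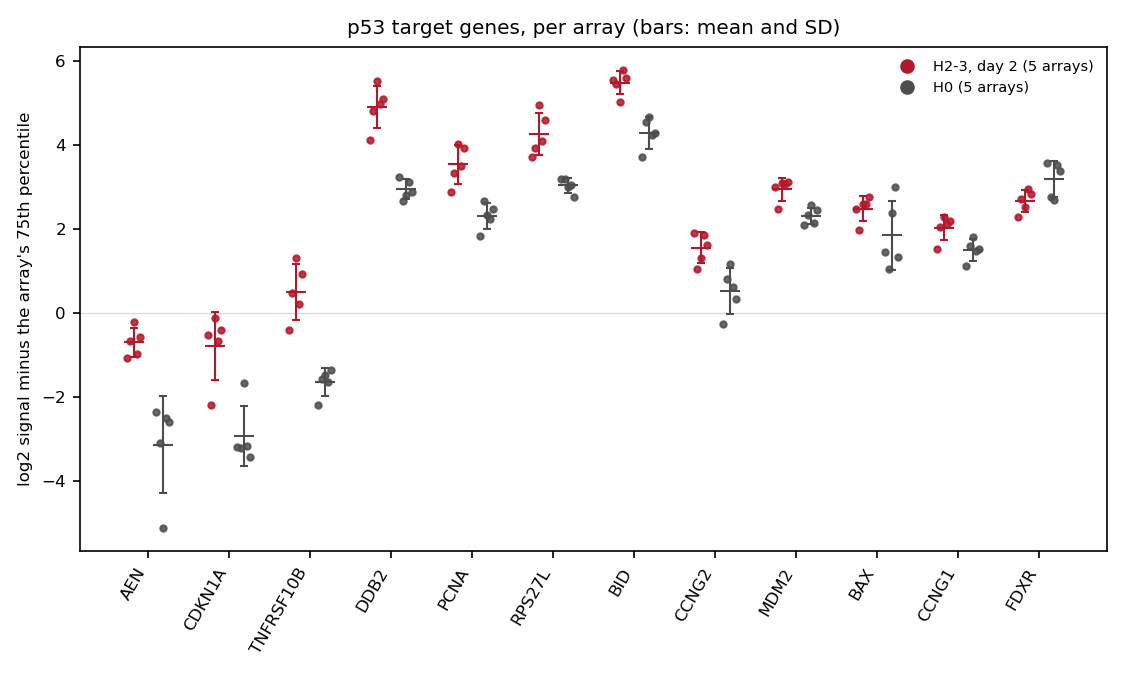
Each point is the level of a p53 target gene on 1 array (log2 signal minus the array's 75th percentile), red for the 5 H2-3 day 2 arrays and grey for the 5 H0 arrays, with mean and SD as bars. AEN, TNFRSF10B, DDB2, PCNA, RPS27L and BID separate the groups, whereas the values of MDM2, BAX, CCNG1 and FDXR overlap.

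Of 21 genes of nucleotide excision and crosslink repair, DDB2 rose and 3 fell (0 without H2-3 day 2 replicate 4 and 1 without H0 replicate 1), among them XPA by -0.91 (SE 0.23, adjusted p = 0.0155) and FANCI by -0.66 (SE 0.18, adjusted p = 0.0222). Neither passed without H2-3 day 2 replicate 4, and FANCI did not pass without H0 replicate 1. Of 22 genes of break signalling and end joining, XRCC5, the Ku80 subunit of end joining, rose by 0.92 (SE 0.21, adjusted p = 0.00981) and 6 had a positive difference, with a median of -0.22. In that list PARP1, a sensor of strand breaks, differed by -1.30 (SE 0.32, adjusted p = 0.0147). PARP1 lost its call without H2-3 day 2 replicate 4. Of 34 genes of DNA replication 3 rose, TYMS, PCNA and POLA2, and 5 fell, POLA1, CDC45, GINS1, DUT and RPA3, and 8 of the 34 had a positive difference, with a median of -0.47. With the percentile over the probes well above background on all arrays, 3 rose and 9 fell. The count that fell was 1 without H2-3 day 2 replicate 4 and 3 without H0 replicate 1 or H0 replicate 5. TYMS, thymidylate synthase, lay between -1.70 and 0.18 on day 2 and between -3.66 and -2.06 in H0 blood, where 2 of 5 arrays were well above background (log2 difference 2.25, SE 0.45, adjusted p = 0.00817). POLA1, the catalytic subunit of polymerase alpha, differed by -1.02 (SE 0.25, adjusted p = 0.0134).

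Of 29 genes of glycolysis and the pentose phosphate pathway 17 rose and 1 fell (58.6% rose, against 10.3% of all genes), with a median of 0.91. The count was 9 without H2-3 day 2 replicate 4, 11 without H0 replicate 1 and 13 to 20 without any other single array. The risen genes included the glucose transporters SLC2A3 and SLC2A14, the hexokinases HK1, HK2 and HK3, the regulators PFKFB2 and PFKFB4, the enzymes ALDOA, GAPDH, ENO1 and PKM2, the lactate exporter SLC16A3, the glycogen phosphorylase PYGL and the pentose phosphate enzymes PGD, TKT and TALDO1. The log2 differences of those named ran from 0.63 for ENO1 to 1.74 for HK3, and the gene that fell was PFKM with -0.67. TALDO1 had levels of 9.51, 9.57, 9.11, 10.01 and 9.59 on day 2 and 8.10, 8.88, 9.21, 8.25 and 8.28 in H0 blood, where replicate 3 exceeded the lowest day 2 array (log2 difference 1.01, SE 0.21, adjusted p = 0.00864). PFKFB2 lay between 2.26 and 2.51 on day 2 and between 1.04 and 1.75 in H0 blood, with no overlap (log2 difference 1.04, SE 0.23, adjusted p = 0.00899).

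Of 47 genes of the respiratory chain 4 rose (8.51%), and of 30 genes of the citric acid cycle and fatty acid oxidation 6 rose (20%). The first count was 1 without H2-3 day 2 replicate 4, H2-3 day 2 replicate 5 or H0 replicate 1. The second was 0 without any of those 3, 2 without H2-3 day 2 replicate 2, 3 without H0 replicate 2 or 4 and 1 without H0 replicate 5. Of 75 cytosolic ribosomal proteins 0 rose and 0 fell by limma, with a median of -0.34, and 6 of the 75 had a positive difference. With the percentile over the probes well above background on all arrays 4 of them fell, and after quantile normalisation 6. Of 28 genes of ribosome biogenesis RRP12 rose and NOP56 fell, and neither held with every array left out.

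Of 37 genes of lysosomes and autophagy 18 rose and 0 fell (48.6% rose, against 10.3% of all genes), with a median of 0.90, and 35 of the 37 had a positive difference. The count was 7 without H2-3 day 2 replicate 4, 10 without H2-3 day 2 replicate 5 or H0 replicate 1 and 12 without H0 replicate 5. They included the proton pump subunits ATP6AP1 and ATP6V0D1, the membrane proteins LAMP1 and LAMP2, the cholesterol exporters NPC1 and NPC2, the proteases CTSA, CTSD and CTSH, the glycosidases GLA and NEU1, and the autophagy genes ATG3, ATG7, ULK1 and SQSTM1. ATG7, the activating enzyme of autophagosome formation, had levels of 3.58, 3.74, 2.93, 4.31 and 3.94 on day 2 and 1.38, 2.47, 2.56, 2.38 and 1.98 in H0 blood (log2 difference 1.55, SE 0.28, adjusted p = 0.00634). ATP6AP1 lay between 6.85 and 7.86 on day 2 and between 5.56 and 6.49 in H0 blood (log2 difference 1.27, SE 0.24, adjusted p = 0.00737). Neither gene's groups overlapped.

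Of 28 genes of heme, iron and globin 7 rose and UROD, a decarboxylase of heme synthesis, fell with -1.07. The log2 differences of the risen genes reached 1.36 for SLC11A1, and the smallest p was that of FTH1, the ferritin heavy chain that stores iron. FTH1 had levels of 10.97, 10.65, 10.56, 10.95 and 10.87 on day 2 and 9.60, 10.15, 10.21, 9.66 and 9.99 in H0 blood (log2 difference 0.88, SE 0.16, adjusted p = 0.00684). The count was 2 without H2-3 day 2 replicate 4, 4 without H2-3 day 2 replicate 5 and 3 without H0 replicate 1. The lipid list went both ways, with 10 of 32 tested genes higher (31.25%, against 10.3% of all genes) and 5 lower (15.6%, against 4.47%). CD36, LPCAT2, APOBR, PLIN2, SCAP, ELOVL5, LPCAT1, NR1H3 and MVD were among those that rose, and LSS, ABCG1, FASN, DHCR7 and ACACA fell. CD36, a scavenger receptor for lipids, was well above background on 2 of 5 H0 arrays and differed by 2.47 (SE 0.55, adjusted p = 0.00933). LSS, lanosterol synthase of the cholesterol pathway, lay between 0.88 and 1.73 on day 2 and between 1.98 and 2.93 in H0 blood (log2 difference -1.11, SE 0.24, adjusted p = 0.00864). The count of risen lipid genes was 3 without H2-3 day 2 replicate 4, 5 without H2-3 day 2 replicate 5 and 6 without H0 replicate 1.

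**Figure D4:**
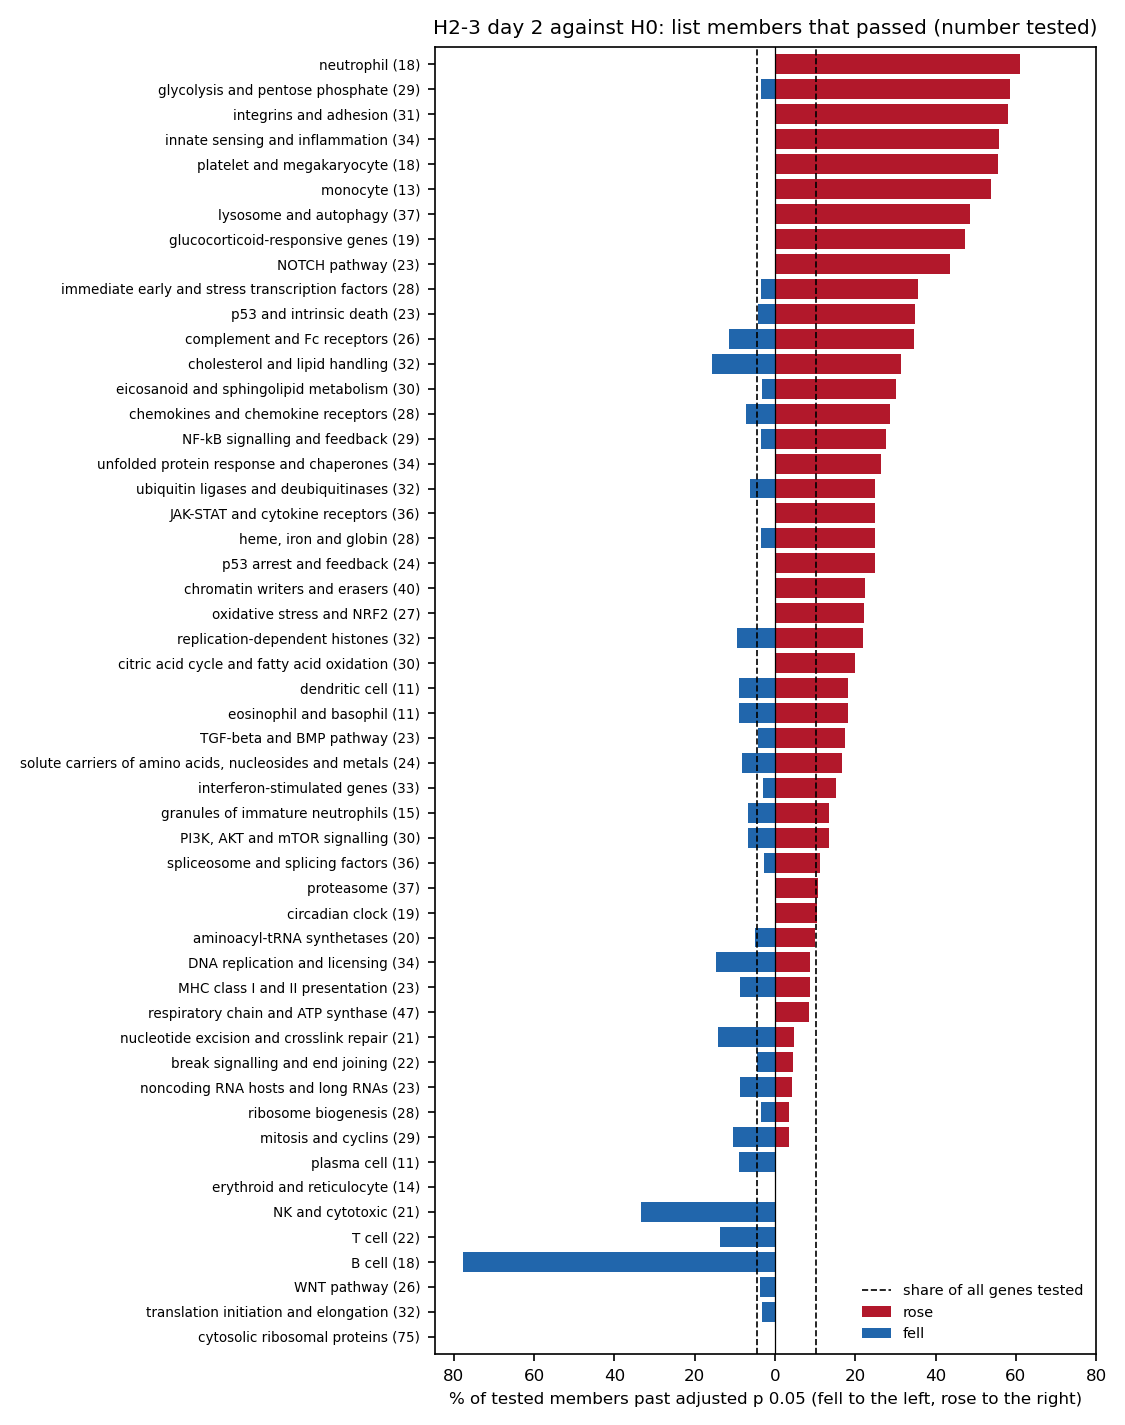
Bars give the share of the tested members of each of 52 gene lists that rose (red, to the right) or fell (blue, to the left) at an adjusted p under 0.05 in H2-3 day 2 blood against H0 blood, with the number tested in brackets. Dashed lines mark the shares of all genes, 10.3% and 4.47%; the neutrophil list rose and the B cell list fell most often.

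Of 34 genes of innate sensing and inflammation 19 rose and 0 fell (55.9% rose, against 10.3% of all genes), with a median of 1.27. They were the receptors TLR1, TLR2, TLR4, TLR6, TLR8, FPR1, FPR2, TREM1, CLEC5A, IL1R1 and IL1R2, the inflammasome genes NLRC4, NLRP12, NAIP, PYCARD and CASP1, and ALOX5, IL1RN and TNF. The count was 6 without H2-3 day 2 replicate 4, H2-3 day 2 replicate 5 or H0 replicate 1, 11 without H2-3 day 2 replicate 2 or H0 replicate 4 and 10 without H0 replicate 5. PYCARD, the inflammasome adaptor, had levels of 6.41, 6.23, 5.63, 6.33 and 6.23 on day 2 and 4.68, 5.17, 5.11, 4.73 and 4.44 in H0 blood, with no overlap (log2 difference 1.34, SE 0.27, adjusted p = 0.0084). NLRC4, which assembles an inflammasome after bacterial flagellin is sensed, lay between 4.51 and 5.86 on day 2 and between 1.74 and 4.45 in H0 blood (log2 difference 1.76, SE 0.38, adjusted p = 0.00901).

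The 9 risen genes of 36 in the JAK-STAT and cytokine receptor list were IL17RA, CSF2RA, CSF3R, IL10RB, STAT5A, STAT5B, IL13RA1, STAT3 and TYK2. IL10RB, a chain shared by receptors of the interleukin 10 family, had levels of 3.31, 3.13, 2.95, 3.63 and 3.29 on day 2 and 1.17, 2.16, 2.45, 2.13 and 2.02 in H0 blood (log2 difference 1.28, SE 0.25, adjusted p = 0.00795). STAT5A, which carries signals of growth factors of blood formation, lay between 2.79 and 3.40 on day 2 and between 1.42 and 2.31 in H0 blood (log2 difference 1.21, SE 0.25, adjusted p = 0.00864). For these 2 genes the groups did not overlap. The count was 5 without H2-3 day 2 replicate 4 or H0 replicate 1 and 15 without H0 replicate 3.

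Of 29 genes of NF-kB signalling 8 rose and 1 fell (27.6% rose, against 10.3% of all genes), with a median of 0.59. TNIP2, an inhibitor of the pathway, had levels of 2.52, 2.72, 2.56, 3.13 and 2.82 on day 2 and 1.06, 1.74, 1.39, 2.08 and 1.25 in H0 blood (log2 difference 1.24, SE 0.26, adjusted p = 0.00864). The NF-kB subunit REL and the inhibitory kinase IRAK3 differed by 0.91 (SE 0.20, adjusted p = 0.0087) and 1.77 (SE 0.40, adjusted p = 0.0101). The count was 3 without H2-3 day 2 replicate 4, H2-3 day 2 replicate 5 or H0 replicate 1, 5 without H2-3 day 2 replicate 2, H0 replicate 2 or H0 replicate 5 and 13 without H0 replicate 3.

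Of 28 immediate early and stress factors 10 rose and 1 fell. FOSB, a partner of JUN, lay between -1.85 and -0.05 on day 2 and between -3.91 and -1.97 in H0 blood, where 4 of 5 arrays were well above background (log2 difference 2.18, SE 0.42, adjusted p = 0.00765). ATF3, a stress-induced transcription factor, had levels of 3.10, 3.05, 4.07, 3.04 and 3.31 on day 2 and 0.88, 1.98, 1.83, 1.77 and 1.63 in H0 blood (log2 difference 1.70, SE 0.37, adjusted p = 0.00916), although the kept probes of ATF3 did not share 1 sign. The count of 10 was 4 without H2-3 day 2 replicate 4, 6 without H2-3 day 2 replicate 5 and 3 without H0 replicate 1.

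Genes that respond to glucocorticoids rose in 9 of 19 cases and fell in 0, with a median of 1.14. They were IL1R2, DUSP1, ALOX5AP, TXNIP, TSC22D3, MAOA, NFKBIA, CD163 and ANXA1. TSC22D3, the glucocorticoid-induced leucine zipper, had levels of 7.81, 8.08, 7.55, 9.10 and 8.69 on day 2 and 5.87, 7.43, 7.02, 6.62 and 7.29 in H0 blood, with no overlap (log2 difference 1.40, SE 0.30, adjusted p = 0.0087). TXNIP, an inhibitor of thioredoxin, lay between 5.45 and 6.80 on day 2 and between 4.02 and 5.13 in H0 blood (log2 difference 1.44, SE 0.27, adjusted p = 0.00684). IL1R2, a decoy receptor for interleukin 1, differed by 2.03 (SE 0.48, adjusted p = 0.0119). The count was 4 without H2-3 day 2 replicate 4 or H0 replicate 1 and 5 without H2-3 day 2 replicate 5. H0 replicate 1 had the lowest mean level of this list in its group, 1.92 against 2.98 to 3.27 in the others.

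Of 31 genes of integrins and adhesion 18 rose and 0 fell, with a median of 0.96. The count was 3 without H2-3 day 2 replicate 4, 9 without H2-3 day 2 replicate 5 and 4 without H0 replicate 1. ITGAM, the CD11b chain of the complement receptor 3 of myeloid cells, had levels of 5.81, 5.92, 5.44, 6.82 and 6.59 on day 2 and 3.31, 5.06, 5.60, 4.44 and 3.65 in H0 blood; H0 replicate 3 exceeded 1 of the day 2 arrays (log2 difference 1.70, SE 0.35, adjusted p = 0.00854). The largest of the list was ITGB3, the beta-3 integrin of platelets, with 2.42.

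Of 23 NOTCH pathway genes 10 rose and 0 fell (43.5% rose, against 10.3% of all genes), with a median of 0.49. They included the proteases and gamma-secretase subunits ADAM10, ADAM17, PSENEN and NCSTN, the receptor NOTCH2, the ligand JAG2, the modifier LFNG, the regulator NUMB and the DNA-binding factor RBPJ. The count was 3 without H2-3 day 2 replicate 4, 4 without H2-3 day 2 replicate 5 or H0 replicate 1 and 6 without H0 replicate 5. ADAM17, the sheddase of TNF and of NOTCH receptors, had levels of 3.78, 3.80, 3.57, 5.04 and 4.77 on day 2 and 2.17, 2.91, 3.43, 2.95 and 2.64 in H0 blood (log2 difference 1.37, SE 0.29, adjusted p = 0.00864). NCSTN lay between 5.19 and 5.95 on day 2 and between 3.79 and 4.87 in H0 blood (log2 difference 1.05, SE 0.23, adjusted p = 0.0094). Neither overlapped.

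Genes of eicosanoid and sphingolipid metabolism rose in 9 of 30 cases and fell in 1. TBXAS1, thromboxane synthase, had levels of 5.01, 4.90, 4.24, 5.69 and 5.40 on day 2 and 2.83, 3.92, 4.20, 3.72 and 2.96 in H0 blood (log2 difference 1.52, SE 0.28, adjusted p = 0.00684). The gene that fell was ALOX15, a lipoxygenase of eosinophils, with levels of -1.69, -1.30, -1.72, -1.43 and -2.23 on day 2 and -0.13, 0.19, -0.04, 1.33 and 0.32 in H0 blood (log2 difference -2.01, SE 0.34, adjusted p = 0.0049). Both separated the groups. Of 11 tested markers of eosinophils and basophils, however, ALOX15 alone fell and 2 rose (18.2%, against 10.3% of all genes). Of the 11, 9 had a positive difference, with a median of 0.34. No marker rose without H2-3 day 2 replicate 2, 4 or 5 or H0 replicate 1 or 5. The count of risen eicosanoid and sphingolipid genes was 2 without H2-3 day 2 replicate 4, H2-3 day 2 replicate 5 or H0 replicate 1. It was 5 without H2-3 day 2 replicate 2, 4 without H0 replicate 5 and 14 without H0 replicate 3. Of 26 genes of complement and Fc receptors 9 rose and 3 fell. FCGR1B, of the high-affinity IgG receptor family, differed by 2.05 (SE 0.45, adjusted p = 0.00901), and its 2 other kept probes by 2.36 and 2.11. This count was 2 without H2-3 day 2 replicate 4, 5 without H2-3 day 2 replicate 5 or H0 replicate 1 and 4 without H0 replicate 5.

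In antigen presentation the direction differed by gene. TAPBP, tapasin of the class I loading complex, had levels of 7.21, 6.69, 6.58, 7.04 and 7.16 on day 2 and 5.77, 6.12, 6.24, 6.33 and 5.75 in H0 blood (log2 difference 0.89, SE 0.17, adjusted p = 0.00737). HLA-DOA and HLA-DOB, the chains of the class II modulator DO of B cells, differed by -1.91 (SE 0.41, adjusted p = 0.00864) and -1.82 (SE 0.43, adjusted p = 0.0123). In all 3 genes the groups did not overlap. A second HLA-DOA probe differed by -0.37.

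Replication-dependent histone genes gave 7 higher and 3 lower of 32. The higher ones were of the H2A and H2B families (HIST1H2AC, HIST1H2AE, HIST1H2BC, HIST1H2BG, HIST1H2BJ, HIST1H2BM and HIST2H2BF) and the lower ones of the H3 and H4 families (HIST1H3B, HIST1H4B and HIST1H4C). These genes are near-identical copies, so a probe may bind RNA of several of them. The other kept probes of HIST1H2AC differed by 0.79 and -0.74. Against the 75th percentile over the probes well above background on all arrays, the list had 2 higher and 4 lower, and after quantile normalisation 1 higher and 3 lower. The higher count was 0 without H2-3 day 2 replicate 4, 1 without H2-3 day 2 replicate 5 or H0 replicate 1, 4 or 5, 2 without H2-3 day 2 replicate 1, 4 without H0 replicate 2 and 12 without H2-3 day 2 replicate 3 or H0 replicate 3.

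Day 2 was set against day 1 in the same H2-3 baboons, to ask which differences had moved between the days. Of all genes 643 (3.03%) differed, 374 (1.76%) higher and 269 (1.27%) lower on day 2. The fit behind these calls, and behind the SE and adjusted p of each gene, did not pair the days by baboon. The interferon-stimulated guanylate-binding proteins GBP2 and GBP1 were among the 5 largest rises of genes with a gene symbol and well above background on at least 3 arrays of each day. GBP2 had levels of 4.97, 2.76, 3.30, 3.66 and 3.01 on day 2 and -0.03, 1.46, 0.15, 1.63 and 0.76 on day 1, with no overlap (log2 difference 2.75, SE 0.49, adjusted p = 0.0126). In H0 blood it lay between 1.85 and 3.53, so the day 2 difference from H0 was 0.67 (adjusted p = 0.333). GBP1 and the ubiquitin ligase HERC5, another interferon-stimulated gene, were higher on day 2 by 2.27 (SE 0.60, adjusted p = 0.0451) and 2.33 (SE 0.50, adjusted p = 0.0219). Of 33 interferon-stimulated genes 7 were higher on day 2 than on day 1 and 0 lower, where 1.76% of all genes were higher and 1.27% lower. Their median differences from H0 were 0.52 on day 2 and -0.31 on day 1. Against H0, 5 rose on day 2 (IFITM2, SAMD9L, IFI35, IFITM3 and ISG20) and 1 fell (HERC6). That count of 5 was 1 without H2-3 day 2 replicate 4 or H0 replicate 1, 2 without H2-3 day 2 replicate 5 or H0 replicate 5, 3 without H2-3 day 2 replicate 2 or H0 replicate 4 and 9 without H0 replicate 3.

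T cell genes were also higher on day 2 than on day 1. Of 22 T cell markers 7 were higher and 1 was lower, where 1.76% of all genes were higher and 1.27% lower. The median difference of these markers from H0 was -0.82 on day 2 and -2.41 on day 1. CD3G, which couples the T cell receptor to signalling, had levels of 2.97, 3.71, 4.61, 3.29 and 3.93 on day 2 and 0.82, 2.93, 2.86, 1.64 and 1.46 on day 1 (log2 difference 1.76, SE 0.39, adjusted p = 0.0255). TNFRSF25, a death receptor of T cells, and GPR174, a lysophosphatidylserine receptor of lymphocytes, were higher by 2.25 (SE 0.48, adjusted p = 0.0218) and 2.41 (SE 0.61, adjusted p = 0.0418). Of 18 B cell markers 0 were higher and 0 lower by limma, with medians from H0 of -2.18 on day 2 and -2.86 on day 1. Of 19 clock genes 4 were higher on day 2, with medians from H0 of -0.37 on day 2 and -1.29 on day 1.

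Genes that were lower on day 2 than on day 1 included ADAMDEC1, a secreted metalloprotease of macrophages. It lay at -3.19, -0.88, -2.23, -0.89 and -1.98 on day 2 and at 0.93, 1.22, 0.58, 0.51 and 1.37 on day 1, without overlap (log2 difference -2.76, SE 0.68, adjusted p = 0.0389). MS4A6E, SH3PXD2B, NOTO and SH3BP4 were also lower, with log2 differences of -2.51, -1.89, -1.77 and -1.61. SH3BP4 also lay below H0 blood on day 2, with -1.81 (SE 0.42, adjusted p = 0.0115) against -0.20 on day 1. WNT3, MARCO and DDB2 did not pass between the days, with differences of 1.02 (adjusted p = 0.466), -1.18 (adjusted p = 0.39) and 0.51 (adjusted p = 0.341).

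All day 1 arrays were scanned on 1 day and all day 2 arrays on another, so day and scan day cannot be told apart, and with scan day as a random block 0 genes passed (3903 at an unadjusted p under 0.05). The 643 calls also moved with single arrays. Leaving out H2-3 day 2 replicates 1 to 5 in turn gave 3748, 189, 90, 143 and 22, and leaving out H2-3 day 1 replicates 1, 3, 4 and 5 gave 292, 292, 83 and 140. With the baboon as a random block the count was 3422, 1455 higher and 1967 lower. Both comparisons share the H2-3 day 2 arrays, and the differences of each day from H0 share the H0 arrays.

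**Figure D5:**
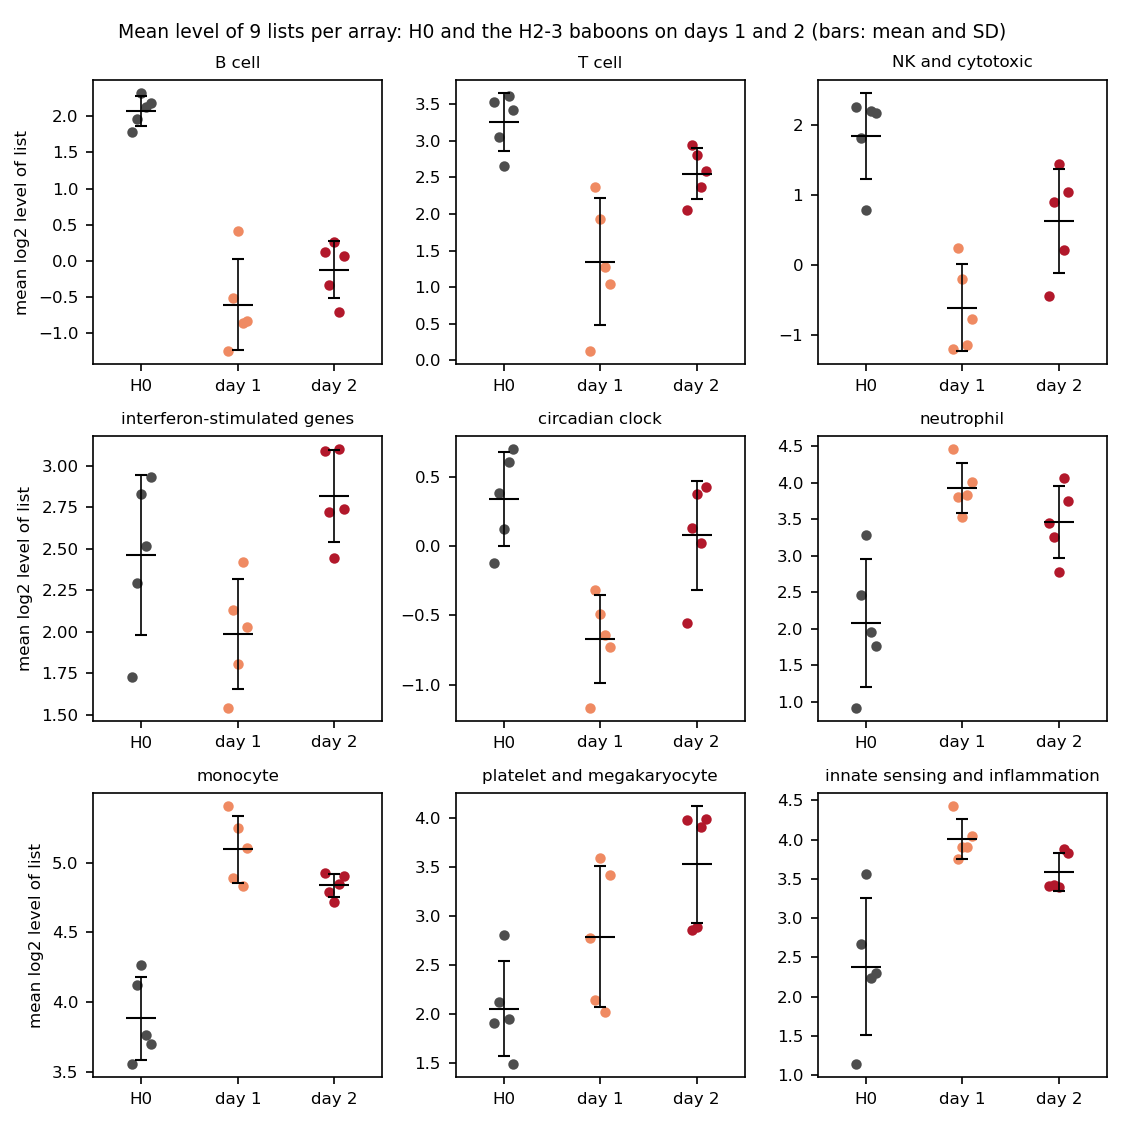
Each point is the mean level of a gene list on 1 array (log2 signal minus the array's 75th percentile, averaged over the tested members), for the 5 H0 arrays and the 5 H2-3 arrays of day 1 and of day 2, with mean and SD as bars. The B cell list lay between -0.70 and 0.26 on day 2 and between 1.78 and 2.32 in H0 blood, while the T cell and interferon-stimulated lists were higher on day 2 than on day 1 on average.

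Severe and milder categories were compared on the same day. Between H2-3 and H1-2 blood on day 2, 0 of 21203 genes passed with limma, and 2067 (9.75%) had an unadjusted p under 0.05; the smallest adjusted p was 0.421. H1-2 day 2 blood against H0 gave 0 genes as well, and 2235 at an unadjusted p under 0.05. The 4 H1-2 baboons differed among themselves. The mean level of the B cell list was -0.70 to 0.26 in the H2-3 baboons, against 0.33 and 0.29 in H1-2 baboons 1 and 2, on slide 5, and 2.81 and 2.80 in H1-2 baboons 3 and 4, on slide 6. The H2-3 arrays on slide 6 had -0.70 and 0.07. On day 1, on other slides, the same H1-2 baboons had 0.62 and -0.05 (baboons 1 and 2) and 2.44 and 2.14 (baboons 3 and 4). WNT3 lay between 0.68 and 1.98 in the H2-3 baboons, against 2.52 and 1.74 in H1-2 baboons 1 and 2 and 6.06 and 6.51 in H1-2 baboons 3 and 4. MARCO lay between -0.59 and 2.05 in the H2-3 baboons, against -0.39 and 0.86 in H1-2 baboons 1 and 2 and -3.51 and -3.18 in H1-2 baboons 3 and 4. Both categories were present on both slides: on slide 6, 2 H2-3 arrays against 2 H1-2 arrays gave 3668 genes, and on slide 5, 3 against 2 gave 0 (1156 at an unadjusted p under 0.05). These counts within a slide were computed after seeing the data.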

How the data were processed

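Whole blood RNA of 23 samples was measured on human Agilent one-colour arrays with 62976 spots. Spot intensity was extracted, background-subtracted and deposited by the authors with Agilent Feature Extraction 10.7.3.1, per the submitters' processing notes and the file headers. The authors also deposited a table of log2 values whose scale and centring are unstated. It matched the arrays with correlations of 0.9982 to 0.9999 and served as an alternative.

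From the processed signal of non-control probes, log2 values were taken minus each array's 75th percentile. A probe was kept if well above background on at least 4 arrays. Where a gene name had several kept probes, 1 probe stood for it, and the mean of the kept probes was an alternative. This gave 21203 genes. Groups came from the titles. The R package limma (version 3.58.1, under R 4.3.3, with statmod 1.5.0) fitted all 23 arrays with 1 mean per group, with Benjamini-Hochberg adjustment over all genes and a threshold of 0.05. Each array was left out in turn, and other scalings, filters, weights and blocks were tried. On simulated data of the H2-3 day 2 against H0 comparison over 21203 genes, 43 of 50 genes changed by 2 and 15 of 50 changed by 1 on the log2 scale were recovered, as were 44 of 50 changed by -2 and 18 of 50 changed by -1, with 8 false calls. The simulated noise was drawn independently for each gene and array, with no effect of slide, scan day or single arrays. The real arrays can hold such effects, so these rates do not give the error of the real calls. The number of arrays limits the precision. The p-values set each difference against a spread estimated from all 23 arrays, in which the irradiated baboons appear on both days, not from the compared groups alone.

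Genes were named as the 10 highest and 10 lowest differences among genes measured on at least 3 arrays of each group, the 5 largest changes out of and into the background, in each list up to 3 called members that had the lowest p, up to 5 genes each way in the other comparisons, and common radiation and blood markers. These rankings covered only genes with a gene symbol, which left out 6455 of the 21203 genes tested. The members and the 53 lists were chosen with earlier results of these data known. H2-3 baboons carry the same numbers on both days in the titles, and by these titles the samples of the days pair by animal. The deviations of same-numbered arrays correlated with 0.0542 to 0.438. Day 2 replicates 1 and 4 correlated best with day 1 replicates 3 and 5, not with their own numbers. The main test of day 2 against day 1 did not use this pairing. It entered only alternatives, with the replicate number or the baboon as a block. Whether the numbers also pair H0 with H2-3 baboons is not known, and they were not treated as pairs. Some genes and 1 list that the rule names are not reported here.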

Additional observations from a re-analysis of the deposited data

Results flagged for a closer look

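Of 470 groups of values checked, 27 held a sample far from the others of its group, and chance marks about 1 in 20 groups. Among the H2-3 day 2 arrays, replicate 1 stood apart for EPS8 (-0.26), REL (3.46), SETD7 (-1.43), PDK4 (-1.86), FANCI (-0.19) and CD177 (5.25). Replicate 2 stood apart for RAB26 (-4.04), CDKN1A (-2.19) and MDM2 (2.47). Replicate 3 stood apart for IGF2 (2.74), SLCO2B1 (-3.74), ATF3 (4.07), PYCARD (5.63) and the mean level of the heme, iron and globin list (5.15).

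Among the H0 arrays, replicate 1 was lowest for IL17RA (3.05), KDM3A (-2.22) and NFIL3 (2.29), and for the mean levels of the lists of the unfolded protein response (2.29), chromatin writers and erasers (1.11), glucocorticoid-responsive genes (1.92) and solute carriers (0.51). Replicate 2 was highest for ID1 (-4.03) and replicate 4 for SLCO2B1 (-3.81). Replicate 3 was highest for FAM20A (0.90) and CDKN1A (-1.67), and lowest for AEN (-5.13) and CCR7 (4.45).

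The effect differed between day 2 and day 1 of the H2-3 baboons for 643 genes by limma, tested as the difference of the days without pairing by baboon. Among the named genes, log2 differences of day 2 minus day 1 were 1.76 for CD3G, 0.67 for PSME2, 0.82 for FBXO32, 2.75 for GBP2, 2.41 for GPR174, 2.33 for HERC5, 2.27 for GBP1 and 2.25 for TNFRSF25. They were -2.76 for ADAMDEC1, -2.51 for MS4A6E, -1.89 for SH3PXD2B, -1.77 for NOTO and -1.61 for SH3BP4. The scan days of the 2 days differed, so they cannot be told apart.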

How the results depend on the processing

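The 3123 genes of H2-3 day 2 against H0 became 1601 when only the 2 groups were fitted and 27 with scan day as a random block; the cause was not tested beyond the fewer arrays of the first fit. Leaving out single arrays gave 831 to 4384 genes. Chosen after seeing the data, H0 arrays of scan day 1 alone gave 427, H2-3 day 2 arrays of slide 5 alone 10 and of slide 6 alone 6074. Under the other alternatives the count ran from 2082 without a filter on dim probes to 4295 with the replicate number as a block, where 2072 were higher and 2223 lower; whether these numbers mark the same animals is not known, and the deviations of same-numbered arrays correlated with 0.508, 0.112, -0.0746, 0.265 and 0.332. The 643 genes of day 2 against day 1 became 328 with the percentile over probes above background on all arrays, 280 with normexp, 167 in the 2 groups alone, 4336 with array weights, 227 with slide and 0 with scan day as a random block, 3422 with the baboon as a random block, and 22 to 3748 without single arrays; the cause was not tested. With the replicate block, which here pairs the same baboons, it was 618, and 855 in the fit of all arrays, added after seeing the data. H2-3 against H1-2 on day 2 gave 0 genes also with the replicate block and without any single array, 1 without a filter on dim probes and 3668 within slide 6, the last chosen after seeing the data. Of 4723 values of named genes under alternatives, 3894 kept direction and side of the threshold, 813 lost the call, 12 gained it and 3 moved. PVT1 alone reversed, to 0.69 with the mean of its kept probes, against -0.92. Probes near background limit the dim genes.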
